A study of Mus musculus with 15 samples.

Results

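The comparison described here is that of doxorubicin in cells that had first been given an siRNA against Hif1a. It sets the 3 libraries labelled Hif-1α knockdown + Doxorubicin (Hif1a_siRNA_Dox) against the 3 labelled Hif-1α knockdown (Hif1a_siRNA), 6 of the 15 libraries of an RNA-seq study of B16.F10 cells, a mouse melanoma line. All cells were grown in 1% oxygen. Hif1a_siRNA_Dox cells received the Hif1a siRNA in lipoplexes at 25 nM, then 24 h later doxorubicin hydrochloride at 0.25 µM for 24 h, and Hif1a_siRNA cells received the siRNA alone. The other groups were Dox (the drug and no siRNA), NC_siRNA (a negative control siRNA) and Control (neither), and Dox and Control are used below as a second measure of the drug effect. When cells without the drug were harvested after transfection is not given. Any difference in the time since transfection therefore cannot be told apart from the drug in this comparison. The question of the comparison is what the drug changes once the mRNA for the oxygen-regulated subunit of HIF-1 is already low.

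The anthracycline doxorubicin slips between DNA base pairs and holds topoisomerase II on the strands it has cut, so that double-strand breaks form. Breaks are signalled by the kinases ATM and ATR to p53, which drives genes of cell cycle arrest and of apoptosis, and are repaired by end joining or by homologous recombination. Anthracyclines also displace histones from chromatin and disturb transcription, iron handling and mitochondria, and drug exporters can carry them out of a cell.

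Genes were compared by gene ID where both groups list them: 12845 genes, of which 12786 passed the filter on low counts and were tested. A further 228 genes are listed for Hif1a_siRNA_Dox and not for Hif1a_siRNA, and 49 the other way round. The deposited tables list a gene for a group only where every library of that group and of Control has at least 1 read, and each of the 13073 genes listed for Hif1a_siRNA_Dox and 12894 listed for Hif1a_siRNA reaches 10 reads in 3 or more of those 6. Genes listed for only 1 side were not tested. Library totals were 23825110 to 28734303 reads in Hif1a_siRNA_Dox and 27433068 to 27926937 reads in Hif1a_siRNA. The first principal component held 94.3% of the variance. Libraries given the drug were more unlike each other than those without it, with a chi-square per degree of freedom of 24.8 to 34.2 between Hif1a_siRNA_Dox libraries and 3.54 to 4.73 between Hif1a_siRNA libraries. The share of reads in mitochondrially encoded genes was 3.90% to 5.07% against 1.64% to 2.11%, and that in cytosolic ribosomal protein genes 9.03% to 9.80% against 5.83% to 5.93%. Replicates are labelled as biological, but no label ties each to its own culture or transfection, so p-values measure only the spread between these samples. Levels are CPM, read counts scaled to a common library size with TMM-adjusted totals, fold changes are log2 with their standard error (SE), and tests are edgeR's quasi-likelihood test with Benjamini-Hochberg adjustment over all genes tested. All 8 markers of melanocytes were listed. Of the markers of other cell types, macrophages had 1 of 8 (Cd68, 6.02 to 10.5 CPM against 8.01 to 8.55 CPM), fibroblasts 3 of 8, endothelial cells 1 of 8 (Vwf, 10.0 to 11.4 CPM against 1.57 to 1.83 CPM), T cells 1 of 8 (Lck, 9.93 to 11.7 CPM against 2.18 to 3.07 CPM) and keratinocytes 0 of 8. The summed fibroblast markers stood at 97.0 to 121 CPM in Hif1a_siRNA_Dox and 22.6 to 25.8 CPM in Hif1a_siRNA, with Col1a2, Col3a1, Dcn, Lum and Fap not listed. The summed melanocyte markers stood at 32965 to 40553 CPM against 10152 to 10598 CPM.

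The siRNA target was low on both sides. Hif1a (gene ID 15251, chromosome 12, 73901324 to 73947554 in mm10) had 14.9, 12.8 and 15.7 CPM in Hif1a_siRNA_Dox, against 18.5, 17.7 and 21.0 CPM in Hif1a_siRNA. Cells that received no siRNA averaged 142 ± 9 CPM in Dox and 217 ± 13 CPM in Control (SD, n = 3 each), several times more. The Hif1a_siRNA_Dox and Hif1a_siRNA groups did not overlap, and what remained of the transcript was lower with the drug (log2 fold change −0.40 ± 0.12 SE, edgeR adjusted p = 0.0089). That call was lost with upper-quartile factors (−0.24, edgeR adjusted p = 0.085) and without replicate 3 of Hif1a_siRNA (−0.32, edgeR adjusted p = 0.063). Arnt, whose product is the constant partner of HIF subunits, had 13.7, 13.4 and 13.5 CPM in Hif1a_siRNA_Dox, against 205, 208 and 199 CPM in Hif1a_siRNA (−3.91 ± 0.07).

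Most of the transcriptome differed between cells with and without the drug. Of the 12786 genes, 5410 were higher (42.3%) and 5262 lower (41.2%), 83.5% in all. The groups did not overlap for 5515 genes that were higher (43.1%) and 5395 that were lower (42.2%), called or not. At least a 2-fold change was called for 3258 genes higher (25.5%) and 3183 lower (24.9%). Large increases were more numerous than large decreases: 515 genes were higher by at least 8-fold and 258 lower, and 72 higher by at least 32-fold and 7 lower. The median log2 fold change of all genes was 0.04, or 0.20 with upper-quartile factors. In bulk RNA, fewer cells of a type and less RNA per cell cannot be told apart.

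**Figure D1:**
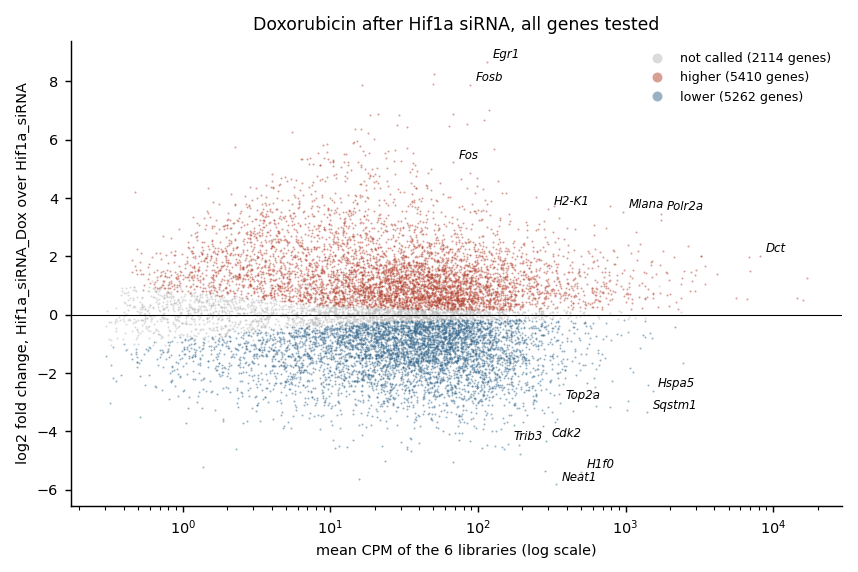
Log2 fold change of each of the 12786 genes tested, Hif1a_siRNA_Dox over Hif1a_siRNA, against its mean CPM over the 6 libraries on a log scale, 1 point a gene, coloured by call. Called genes lie on both sides of 0, and the changes above 6 are all increases.

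Where the higher side averaged 5 CPM or more and the groups lay apart, the largest increases were of genes nearly silent without the drug. Egr1, an immediate early transcription factor (chromosome 18, 34861207 to 34864956), had 267, 220 and 206 CPM in Hif1a_siRNA_Dox, against 0.517, 0.771 and 0.400 CPM in Hif1a_siRNA. It was 407-fold higher (8.67 ± 0.17, edgeR adjusted p = 1.2e-12), from 15, 23 and 12 reads in the libraries without the drug. Fosb, a component of the transcription factor AP-1 (chromosome 7, 19302696 to 19310118), had 207, 168 and 156 CPM, against 0.621, 1.14 and 0.467 CPM (7.89 ± 0.20). All 3 drug-treated libraries stood far above all 3 others for both genes. Oplah, an enzyme of glutathione turnover (7.91 ± 0.15), stood marginally above Fosb. Hhatl (7.87 ± 0.24, on 2, 3 and 7 reads without the drug) and Dgat2, which makes triglycerides (7.01 ± 0.11), came after Fosb. Without replicate 3 of Hif1a_siRNA the value for Hhatl moved to 8.51. The others described were Mdga1 (6.89), Epop (6.89), the neuronal adhesion gene Icam5 (6.86), the muscle actinin Actn3 (6.85), the retinoic acid hydroxylase Cyp26b1 (6.68) and Tent5c (6.54), which lengthens poly(A) tails. Oplah overlaps Exosc4 by 3274 bases, and whether the authors' counting used strand is not given.

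The largest decreases were of genes well expressed without the drug. Neat1, the long noncoding RNA of nuclear paraspeckles (chromosome 19, 5824708 to 5845480), had 11.1, 13.2 and 11.1 CPM in Hif1a_siRNA_Dox, against 589, 817 and 601 CPM in Hif1a_siRNA (−5.82 ± 0.15, edgeR adjusted p = 1.4e-11). The linker histone gene H1f0 (chromosome 15, 79028212 to 79030504) had 22.5, 24.0 and 23.3 CPM, against 988, 973 and 974 CPM (−5.39 ± 0.07). Bhlhe41, a repressor of the circadian clock (chromosome 6, 145858243 to 145865420), had 12.6, 15.1 and 12.9 CPM, against 559, 542 and 573 CPM (−5.36 ± 0.09). These were decreases of 56.6-fold, 42.1-fold and 41.2-fold, with little spread inside either group of H1f0 and Bhlhe41 and a higher second Hif1a_siRNA library for Neat1. The remainder were Arfgef3 (−5.05), Fignl1 (−5.03) and Rif1 (−4.56), both of double-strand break repair, the phosphoinositide phosphatase Mtmr3 (−4.78), Angptl6 (−4.66), Fam133b (−4.61), the trafficking GTPases Rab38 (−4.59) and Rab39b (−4.58), and Zbed6 (−4.55). Zbed6 lies wholly within Zc3h11a, so that reads of the pair may be split between them.

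**Figure D2:**
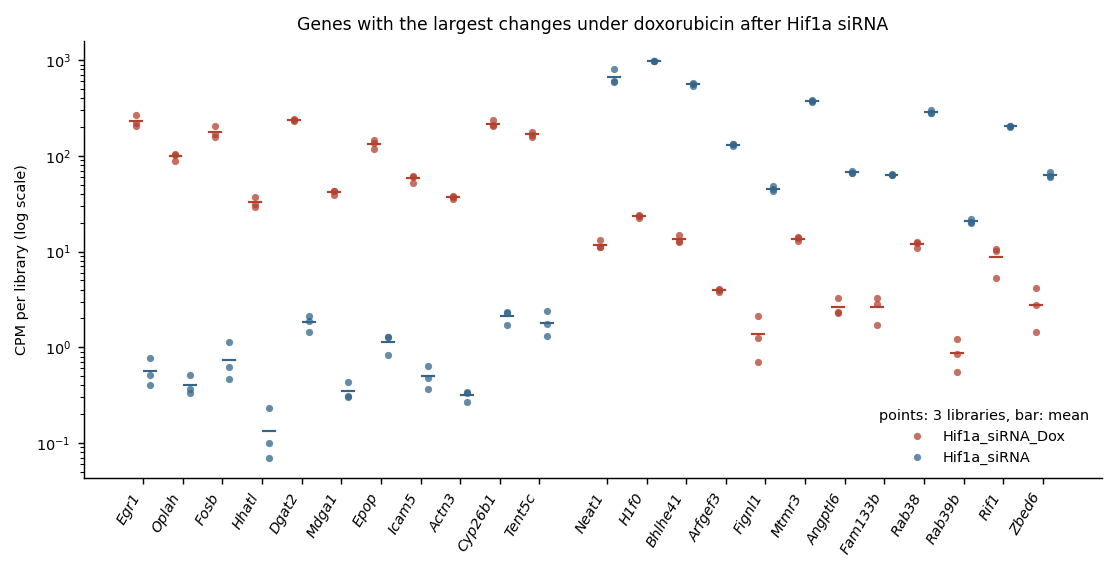
CPM of 11 of the genes with the largest increases (left) and the 12 with the largest decreases (right) by the naming rule, on a log scale, with 1 point a library and a bar at the mean, Hif1a_siRNA_Dox left of Hif1a_siRNA. No gene shown has overlapping groups, and each gene on the left lies under 3 CPM in every Hif1a_siRNA library.

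Counted in CPM, the gains went to a few abundant transcripts. The cytochrome oxidase subunit mt-Co1 had 27276, 20045 and 24841 CPM in Hif1a_siRNA_Dox, against 10691, 11154 and 8254 CPM in Hif1a_siRNA (1.26 ± 0.13). The melanosome genes Dct (2.02), Pmel (1.97) and Tyrp1 (1.50), the elongation factor Eef1a1 (0.58), the ferritin light chain Ftl1 (0.50), the lysosomal protease Ctsd (2.01) and the prolyl isomerase Ppia (2.01) followed. The losses were led by the glycolytic Aldoa, with 1211, 1265 and 1090 CPM against 3715, 3706 and 3810 CPM (−1.66 ± 0.07). After it came the autophagy receptor Sqstm1 (−3.35), the chaperones Hspa5 (−2.61), Hspa9 (−2.95) and Hspa8 (−1.96), actin Actg1 (−3.25) and clathrin Cltc (−3.16). Ftl1, Ppia and Eef1a1 have many near-identical copies, and their share of reads is uncertain; pseudogenes took 1.94% to 1.98% of reads in Hif1a_siRNA_Dox and 1.63% to 1.70% in Hif1a_siRNA.

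The target of the drug was itself reduced. Of 12 topoisomerases and genes that remove a trapped topoisomerase, 9 were lower and 3 higher, with a median of −1.15. Over all genes tested 41.2% were lower and 42.3% higher, the shares to set beside this count and those of the lists below. Top2a, the topoisomerase II of dividing cells, had 74.6, 79.2 and 83.0 CPM in Hif1a_siRNA_Dox, against 676, 610 and 629 CPM in Hif1a_siRNA (−3.02 ± 0.07, edgeR adjusted p = 2.8e-12). Its paralog Top2b (−1.32) and the type I enzyme Top1 (−1.57) were also lower, as was Tdp1 (−1.32), which cleaves topoisomerase from DNA ends. Top3a, which acts with the Bloom helicase to dissolve recombination intermediates, had 121, 137 and 138 CPM, against 15.8, 14.3 and 18.7 CPM (3.02 ± 0.11), and was the largest of the 3 increases.

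Most genes of break signalling and repair were lower. Of 26 DNA damage kinases, checkpoint and end joining genes, 16 were lower and 4 higher, with a median of −0.63. Nbn, of the complex that finds broken ends, had 5.70, 6.70 and 3.55 CPM in Hif1a_siRNA_Dox, against 71.5, 67.5 and 66.0 CPM in Hif1a_siRNA (−3.67 ± 0.16). Rnf168, the ubiquitin ligase that marks histones at breaks (−2.89), and the checkpoint kinase Chek2 (−2.41) followed, and Parp1, the sensor of strand breaks, rose (1.42). Atm itself had a log2 fold change of 0.24 and did not pass. Among 26 homologous recombination and Fanconi genes, 18 were lower and 8 higher (median −0.81). Brca2, a central factor of this pathway, had 11.1, 11.9 and 15.8 CPM, against 41.9, 48.5 and 41.7 CPM (−1.77 ± 0.13), with no overlap. The increases here were led by Xrcc3 (2.94), whose span overlaps Klc1, with Fance (1.74), Palb2 (1.66) and Fanca (1.59).

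Targets of p53 went both ways, 14 of 26 higher and 7 lower, with a median of 0.39. Plk3, a stress-responsive kinase, had 175, 161 and 153 CPM in Hif1a_siRNA_Dox, against 14.2, 14.8 and 13.9 CPM in Hif1a_siRNA (3.51 ± 0.08). Its relative Plk2 (2.91) and the antiproliferative Btg2 (2.67) rose with it. Gadd45a, of repair and arrest (−2.77), Rap2b (−2.57) and the pro-apoptotic Bbc3 (−1.81) fell. The cell cycle inhibitor Cdkn1a had 268, 288 and 260 CPM, against 196, 189 and 196 CPM (0.49 ± 0.06), a small increase with groups that did not overlap. Mdm2, which restrains p53, had a log2 fold change of −0.13 and did not pass, but was called lower without replicate 2 of Hif1a_siRNA_Dox (−0.21, edgeR adjusted p = 0.0096).

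Within the BCL2 family, 5 of 11 genes were higher and 5 lower, near the shares over all genes tested (42.3% and 41.2%). The BH3-only killer Bcl2l11, also called Bim, had 125, 117 and 123 CPM in Hif1a_siRNA_Dox, against 11.6, 11.8 and 12.4 CPM in Hif1a_siRNA (3.35 ± 0.08). Bmf (3.06), Bad (2.39) and Bid (1.93), also BH3-only, rose as well. The survival factor Mcl1 had 14.9, 20.5 and 15.5 CPM, against 178, 174 and 180 CPM (−3.38 ± 0.11), and its relative Bcl2l1 fell by 1.29 on the log2 scale. Bbc3 (−1.81) and the effector Bak1 (−1.03) fell and the effector Bax rose (0.53), so that neither side of the family moved as 1. Of 20 caspase, death receptor and inhibitor genes, 6 were higher and 9 lower (median −0.22), with Casp2 lower (−1.91).

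Replication and mitosis genes differed in the balance of their calls. Of 34 DNA replication genes, 19 were higher and 10 lower (median 0.26). Orc1, which marks origins and overlaps Prpf38a by 3632 bases, had 71.0, 62.5 and 62.6 CPM in Hif1a_siRNA_Dox, against 10.5, 12.0 and 12.0 CPM in Hif1a_siRNA (2.51 ± 0.10), and Fen1, the flap nuclease of lagging strands, rose by 1.63. Rfc1, the large subunit of the clamp loader, was lower (−2.64), as were the clamp Pcna (−0.64) and the helicase subunit Mcm2 (−0.57). Of 30 mitosis genes, 8 were higher and 15 lower (median −0.24). The kinetochore gene Nuf2 had 6.68, 8.35 and 7.32 CPM, against 55.2, 63.6 and 60.7 CPM, well apart, and the cyclin Ccna2 was lower (−1.86). The spindle kinase Aurka was higher (1.69) while Aurkb was lower (−1.69). Ccnb1 (−0.16) and Plk1 (−0.14) did not pass. Without replicate 2 of Hif1a_siRNA_Dox both were called lower, Ccnb1 by −0.32 (edgeR adjusted p = 0.0062) and Plk1 by −0.24 (0.0053).

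The factors of G1 held 2 of the larger changes. E2f2, an activator of S phase genes, had 213, 178 and 177 CPM in Hif1a_siRNA_Dox, against 6.48, 7.08 and 8.40 CPM in Hif1a_siRNA (4.69 ± 0.12). Cdk2, the kinase that drives S phase, had 26.3, 29.2 and 26.1 CPM, against 582, 521 and 545 CPM (−4.33 ± 0.08). Cdk2 lies wholly within the annotated span of Pmel, sharing 7114 bases, and Pmel rose, so the split of reads between the pair is uncertain. The G1 cyclins Ccne2 (2.68), which overlaps Ints8 by 5622 bases, and Ccnd1 (2.04) rose, and the inhibitor Cdkn1b fell (−1.76). Over the list, 9 of 23 were higher and 10 lower, with a median of 0.06, near the shares over all genes tested (42.3% and 41.2%). Of 13 linker and variant histone genes, 4 were higher and 6 lower (median −0.10), with the linker histones H1f0 (−5.39) and H1f2 (−2.41) leading the decreases. The libraries were made from poly(A) RNA, which leaves out the transcripts of most replication-dependent histone genes.

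The machinery of transcription changed unevenly. Polr2a, the catalytic subunit of RNA polymerase II (chromosome 11, 69733997 to 69758633), had 3418, 2993 and 3170 CPM in Hif1a_siRNA_Dox, against 290, 300 and 275 CPM in Hif1a_siRNA (3.47 ± 0.08, edgeR adjusted p = 2.1e-12). Hexim1, which holds the elongation kinase P-TEFb inactive, had 613, 460 and 458 CPM, against 58.4, 52.9 and 52.7 CPM (3.22 ± 0.11). The kinase's cyclins Ccnt2 (−2.72) and Ccnt1 (−1.10) and the elongation scaffold Aff4 (−2.31) were lower, and its catalytic subunit Cdk9 (0.08) did not pass. Over 27 RNA polymerase II and elongation genes, 12 were higher and 11 lower, with a median of 0.13. Those counts lie near the shares over all genes tested (42.3% and 41.2%).

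Splicing regulators were mostly lower. Of 24 SR, CLK and hnRNP genes, 19 were lower and 0 higher, with a median of −1.19, the lowest of the 32 lists. Srsf1, the archetypal SR protein, had 37.4, 36.1 and 46.6 CPM in Hif1a_siRNA_Dox, against 236, 218 and 192 CPM in Hif1a_siRNA (−2.43 ± 0.11). Srsf10 (−2.44), Hnrnpd (−2.13), Srsf3 (−2.04), Rbm39 (−1.95) and Hnrnpu (−1.71) were lower as well. Son, Hnrnpa2b1, Hnrnph1, Srsf7 and Clk2, between −0.06 and 0.14, did not pass; with upper-quartile factors 3 members were higher.

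The integrated stress response, in which a block in translation initiation favours the factor ATF4 and its targets, showed mainly decreases. Of 24 targets, 17 were lower and 4 higher, with a median of −0.86. Trib3, a pseudokinase that feeds back on ATF4, had 14.4, 15.6 and 12.6 CPM in Hif1a_siRNA_Dox, against 302, 303 and 309 CPM in Hif1a_siRNA (−4.42 ± 0.09). Atf4 itself had 137, 164 and 120 CPM, against 649, 646 and 622 CPM (−2.18 ± 0.10). Slc7a11, the cystine importer, had 10.2, 12.6 and 13.3 CPM, against 156, 162 and 148 CPM (−3.70 ± 0.10). Each library with the drug lay below each library without it for all 3. Cebpg, a partner of ATF4 (−4.49), Cebpb (−3.87), Chac1, which degrades glutathione (−2.97), Asns, which makes asparagine (−2.54), and the pro-apoptotic factor Ddit3 (−1.95) fell with them. The 4 that rose, Phgdh (1.34), Psph (1.02), Shmt2 (0.53) and Psat1 (0.19), are enzymes of serine and glycine synthesis.

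ATF4 binds a composite C/EBP-ATF element whose core was searched as TGATGNAA on both strands in RefSeq promoters of GRCm38.p6, the assembly behind mm10, from 250 bases before to 50 after the start. The core lies in 7 of the 23 list promoters found in that table (30.4%), against 3.97% of all 32851 promoters and 2.23% of the 9608 promoters of tested genes. The 7 are those of Slc7a11, Asns, Chac1, Trib3, Nupr1, Pck2 and Atf3, with log2 fold changes of −4.42 to −0.42. Members whose promoter lacks the core ran from −4.49 (Cebpg) to 1.34 (Phgdh), so steep decreases were not limited to promoters that hold it. The list was drawn up from targets of this response, so its high share is no test of the element. Over genes lower by at least 2-fold the share was 2.81%, and over genes higher by at least 2-fold 2.29%. Stretches of 100 bases are shown for 3 members that fell by more than 2 on the log2 scale, to let the element be read beside its value. They are written 5′ to 3′ along the gene, with the core on either strand in capitals. Slc7a11 is chr3:50443614-50443713 (minus strand), Asns chr6:7693210-7693309 (minus strand) and Chac1 chr2:119351012-119351111 (plus strand).
Slc7a11: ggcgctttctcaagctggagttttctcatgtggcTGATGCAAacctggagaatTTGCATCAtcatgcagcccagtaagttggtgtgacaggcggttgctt
Asns: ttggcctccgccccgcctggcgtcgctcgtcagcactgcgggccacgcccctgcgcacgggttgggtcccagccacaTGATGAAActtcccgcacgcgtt
Chac1: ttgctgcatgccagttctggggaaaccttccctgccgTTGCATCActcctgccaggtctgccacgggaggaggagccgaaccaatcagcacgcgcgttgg
The Slc7a11 promoter holds 2 copies facing each other, starting 66 and 47 bases before the start, and those of Asns and Chac1 hold 1 each. A match is a run of letters and not a measured binding site.

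Chaperones showed no common direction. Of 22 endoplasmic reticulum chaperones and unfolded protein response genes, 11 were higher and 11 lower. The chaperone Hyou1 had 1033, 858 and 841 CPM in Hif1a_siRNA_Dox, against 197, 204 and 207 CPM in Hif1a_siRNA (2.17 ± 0.09), and the lectin chaperone Calr rose by 1.83. Hspa5, the master chaperone of the compartment, had 442, 497 and 350 CPM, against 2618, 2637 and 2608 CPM (−2.61 ± 0.11), a span that includes 1921 bases shared with Rabepk (2.51). Of 18 heat shock proteins, 9 were higher and 8 lower. The stress-inducible pair Hspa1b (3.13 ± 0.11) and Hspa1a (3.24 ± 0.16) rose, while the constitutive Hspa4 (−3.38) and Hspa8 (−1.96) and the mitochondrial Hspa9 (−2.95) fell. Hspa1a and Hspa1b are near-identical copies, so the division of reads between them is uncertain.

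Lysosomal enzymes rose. Of 27 lysosome and autophagy genes, 18 were higher and 7 lower, with a median of 0.89. Glb1, the lysosomal beta-galactosidase, which overlaps Tmppe by 10107 bases, had 221, 172 and 176 CPM in Hif1a_siRNA_Dox, against 37.1, 38.3 and 38.0 CPM in Hif1a_siRNA (2.32 ± 0.10). Gusb, beta-glucuronidase, rose by 3.46, the proteases Ctsl and Ctsd by 2.21 and 2.01, and the membrane protein Lamp1 by 1.38. The decreases were of autophagy factors and pump subunits: the receptor Sqstm1 (−3.35), the proton pump subunits Atp6v1h (−2.04) and Atp6v0d1 (−0.99), Atg5 (−1.09), Gabarapl1 (−0.82), and Tfe3 (−0.65) and Tfeb (−0.42), which encode activators of lysosomal genes.

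TFEB and its relatives bind an E-box, CACGTG, within the CLEAR element of lysosomal promoters. That hexamer, a palindrome, lies in 9 of the 23 list promoters in the table (39.1%), against 7.15% of all promoters and 10.5% of those of tested genes. Genes of the 9 did not share a direction: Ctsd, Ctsl, Gla, Glb1, Lamp1, Mcoln1 and Atg7 were higher, and Atp6v0d1 and Atg5 lower. The share was 9.67% among genes higher by at least 2-fold and 11.3% among genes lower by at least 2-fold. Stretches of 3 members that rose are shown with the hexamer in capitals. They are Ctsd at chr7:142387878-142387977 (minus strand), Glb1 at chr9:114400978-114401077 (plus strand) and Lamp1 at chr8:13159061-13159160 (plus strand).
Ctsd: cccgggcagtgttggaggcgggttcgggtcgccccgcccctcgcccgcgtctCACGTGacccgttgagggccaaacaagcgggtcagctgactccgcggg
Glb1: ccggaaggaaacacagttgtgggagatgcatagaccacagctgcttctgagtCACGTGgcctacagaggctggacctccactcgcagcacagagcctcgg
Lamp1: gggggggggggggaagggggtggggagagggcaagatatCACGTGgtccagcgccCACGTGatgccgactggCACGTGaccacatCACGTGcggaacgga
Lamp1 holds 4 copies within its last 61 bases before the start, and the stretches of Ctsd and Glb1 hold 1 each.

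Immediate early genes, switched on within minutes by growth factor or stress kinases, were mostly raised at 24 h. Of 20 AP-1 and immediate early genes, 15 were higher and 5 lower, with a median of 1.30. Fos (chromosome 12, 85473890 to 85477274) had 143, 133 and 122 CPM in Hif1a_siRNA_Dox, against 3.79, 3.52 and 3.27 CPM in Hif1a_siRNA (5.23 ± 0.11, edgeR adjusted p = 1.3e-12). Nr4a2, an orphan nuclear receptor (3.17), and Klf4 (2.69) rose, and Klf6 (−2.47), Ier3 (−1.44) and Jund (−0.57) fell. Jun had 130 CPM on average against 158 CPM (−0.28 ± 0.09), so the partners of AP-1 did not move together, and Junb changed by 0.32. The call for Jun was lost with upper-quartile factors (−0.13) and without replicate 3 of Hif1a_siRNA (−0.23), and that for Junb without replicate 2 of Hif1a_siRNA_Dox (0.19). Of 12 MAPK phosphatases and Sprouty genes, which damp the kinase cascade above Fos, 7 were higher and 3 lower, led by Dusp6 (3.07) and Spry2 (2.03).

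The promoters of Fos and Fosb are shown because they gave some of the largest increases and, as described below, some of the largest differences from cells without siRNA. Capitals mark the half-site of the cyclic AMP response element, TGACG, and the TATA box, TATAAA, searched on both strands. Fos is at chr12:85473790-85473889 (plus strand) and Fosb at chr7:19310046-19310145 (minus strand).
Fos: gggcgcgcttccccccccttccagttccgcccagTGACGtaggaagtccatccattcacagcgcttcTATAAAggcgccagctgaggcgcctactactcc
Fosb: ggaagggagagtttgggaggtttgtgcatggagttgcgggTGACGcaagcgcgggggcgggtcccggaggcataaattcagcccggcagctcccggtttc
Both hold the half-site, 66 bases before the start in Fos and 60 in Fosb, and only the Fos stretch holds TATAAA. The half-site is common, at 20.8% of all promoters and 33.0% of those of tested genes, and TATAAA lies in 13.6% and 6.47% of the same sets.

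NF-kB genes were more often higher, 9 of 16 against 4 lower, with a median of 0.84. Tnfaip3, the A20 brake on the pathway, averaged 39.2 ± 4.0 CPM in Hif1a_siRNA_Dox and 1.63 ± 0.46 CPM in Hif1a_siRNA (SD, n = 3 each), a log2 fold change of 4.58 ± 0.18. The subunits Nfkb2 (2.48) and Rela (1.38) rose, and the inhibitor Nfkbia fell (−0.70). Cxcl10, the chemokine that draws T cells, had 6.56, 7.38 and 6.11 CPM, against 96.6, 100 and 95.8 CPM (−3.86 ± 0.09). Cxcl10 lies wholly within the span of Art3, which rose (3.71), and the division of reads between them is uncertain.

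Interferon-stimulated genes split, 10 of 22 higher and 6 lower, with a median of 0.20. Parp14 (3.73), Gbp2 (2.95), Irf1 (2.01), Bst2 (1.92) and the DNA sensor Cgas (1.63) rose. Ifit2 had 10.3, 11.2 and 14.8 CPM in Hif1a_siRNA_Dox, against 54.9, 58.1 and 51.7 CPM in Hif1a_siRNA (−2.19 ± 0.13), and Ifit1 (−1.42), Ifit3 (−0.91) and the RNA sensor Ifih1 (−1.73) fell as well. Rsad2, Mx1, Mx2, Stat2, Sting1 and Ifi27 did not pass.

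Antigen presentation by MHC class I rose throughout its list. All 11 genes tested were higher, with a median of 1.83, the highest of the 32 lists. The class I heavy chain H2-K1 had 574, 597 and 497 CPM in Hif1a_siRNA_Dox, against 44.1, 46.4 and 43.9 CPM in Hif1a_siRNA (3.63 ± 0.08, edgeR adjusted p = 2.2e-12). H2-D1, a close copy with which it may share reads, rose by 2.01. The peptide transporter Tap1 had 17.8, 20.6 and 18.0 CPM, against 1.21, 1.84 and 1.60 CPM (3.60 ± 0.18). The immunoproteasome subunit Psmb10 (2.73), the loading factor Tapbp (2.18), the trimming peptidase Erap1 (1.64) and the light chain B2m (1.45) rose, and Canx had the smallest increase (0.22). Canx, Calr and Pdia3 are also on the list of endoplasmic reticulum chaperones.

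The lists of drug exporters and of detoxifying enzymes each held changes in both directions. Of 9 ATP-binding cassette exporters, 5 were higher and 3 lower, with a median of 1.19. The increases were of Abcb10 (2.32) and Abcb8 (1.80), both of the mitochondrial inner membrane, Abcc10 (1.60), Abcc4 (1.47) and Abcb6 (1.19). The largest decrease was of Abcc5 (−1.16 to −1.08 over left-out replicates), and Abcc1, a multidrug exporter that accepts anthracyclines, fell as well (−0.85). Abcb1b is a mouse gene for P-glycoprotein, the best-known doxorubicin exporter. It had 7.23, 7.92 and 9.66 CPM in Hif1a_siRNA_Dox, against 10.6, 10.7 and 11.8 CPM in Hif1a_siRNA (−0.42 ± 0.15, edgeR adjusted p = 0.019). That call was lost with upper-quartile factors (−0.26) and without replicate 3 of Hif1a_siRNA (−0.37). Abcb1a had 11, 15 and 16 reads in Hif1a_siRNA and was not listed for Hif1a_siRNA_Dox, so it was not tested.

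Of 25 anthracycline-reducing and antioxidant enzymes, 14 were higher and 9 lower (median 0.39). The peroxidase Prdx1 had 3292, 2732 and 2775 CPM in Hif1a_siRNA_Dox, against 672, 636 and 640 CPM in Hif1a_siRNA (2.18 ± 0.08). Gpx4, which removes lipid peroxides (1.82), the carbonyl reductase Cbr1, which reduces doxorubicin to its alcohol (1.54), and Sod1 (1.15) rose. The regulator Nfe2l2 (−1.47) fell, as did Txnrd1 (−2.23), Hmox1 (−2.14), Srxn1 (−1.92) and Gclm (−1.53), while Nqo1 rose (1.32). Of 13 iron genes, 8 were lower and 5 higher, with a median of −1.01. The storage subunit Fth1 (1.27) and the transferrin receptor Tfrc (1.00) rose, and the importer Slc39a14 fell (−2.18).

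The pigment programme moved both ways. Of 19 melanocyte factors and pigment genes, 7 were higher and 11 lower, with a median of −0.83. Mlana, a melanosome antigen, had 1882, 1559 and 1868 CPM in Hif1a_siRNA_Dox, against 159, 156 and 146 CPM in Hif1a_siRNA (3.52 ± 0.09). Dct (2.02), Pmel (1.97), Tyrp1 (1.50), Gpnmb (0.54) and Slc45a2 (0.45), all of the melanosome, rose with it. Sox10, the lineage factor, had 33.5, 35.3 and 30.0 CPM, against 196, 204 and 203 CPM (−2.61 ± 0.08). Pax3 (−2.39), the melanocortin receptor Mc1r (−3.59) and Mitf (−0.71), upstream of the pigment genes, fell. So did Tyr, the rate-limiting enzyme of melanin synthesis, with 61.7, 48.4 and 39.2 CPM against 166, 166 and 168 CPM (−1.74 ± 0.13), and Rab38 (−4.59), which delivers such enzymes to melanosomes.

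Matrix and TGF-beta genes rose together in count. Of 24 collagen, laminin and integrin genes, 20 were higher and 4 lower (median 0.98), and of 22 TGF-beta ligands, binding proteins and SMADs, 14 were higher and 5 lower (median 1.61). Collagen Col1a1 had 82.4, 59.4 and 61.5 CPM in Hif1a_siRNA_Dox, against 4.28, 3.75 and 3.60 CPM in Hif1a_siRNA (4.13 ± 0.15). Sparc, a matrix-binding protein (1.87), the metalloprotease Mmp14 (1.59) and Lamb2 (1.82) rose, and the integrins Itgb3 (−3.15) and Itga4 (−1.75) fell. Ccn2, connective tissue growth factor, had 57.1, 37.8 and 43.7 CPM, against 0.896, 0.738 and 1.30 CPM (5.55 ± 0.22). Id1 (3.94), the inhibitory Smad6 (2.80) and Smad7 (2.40), and the ligands Tgfb2 (2.18), Tgfb3 (1.83) and Tgfb1 (1.28) rose. Smad4, the common partner of receptor-regulated SMADs, fell (−2.90), and the receptors Tgfbr1 (−0.17) and Tgfbr2 (0.12) did not pass. With upper-quartile factors 3 members of the TGF-beta list were lower in place of 5. Col1a1 is also on the fibroblast marker list, whose summed level moved with it as given above, and the part of such cells in these values was not tested.

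Among the metabolic lists, cholesterol synthesis had 11 of 24 higher and 11 lower, near the shares over all genes tested (42.3% and 41.2%). The sterol reductase Tm7sf2 had 112, 104 and 100 CPM in Hif1a_siRNA_Dox, against 10.7, 12.4 and 13.3 CPM in Hif1a_siRNA (3.12 ± 0.10). The mevalonate kinase Mvk rose (2.84), and Insig1, which retains the sterol sensor, fell (−2.89). Of 24 glycolysis genes, 13 were higher and 7 lower (median 0.34), and of 25 HIF targets outside glycolysis, 9 were higher and 15 lower (median −0.55). Of 83 cytosolic ribosomal protein genes, 74 were higher and 3 lower (median 0.73), and of 15 mitochondrially encoded genes, 14 were higher and 0 lower (median 1.80). The mitochondrial ribosomal RNA mt-Rnr2, with 2894, 2608 and 3876 CPM against 304, 338 and 338 CPM, had the largest of those increases (3.26 ± 0.14). Zinc finger genes named Zfp, many of them repressors with KRAB domains, gave 78 higher and 162 lower of 310, with a median of −0.52.

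**Figure D3:**
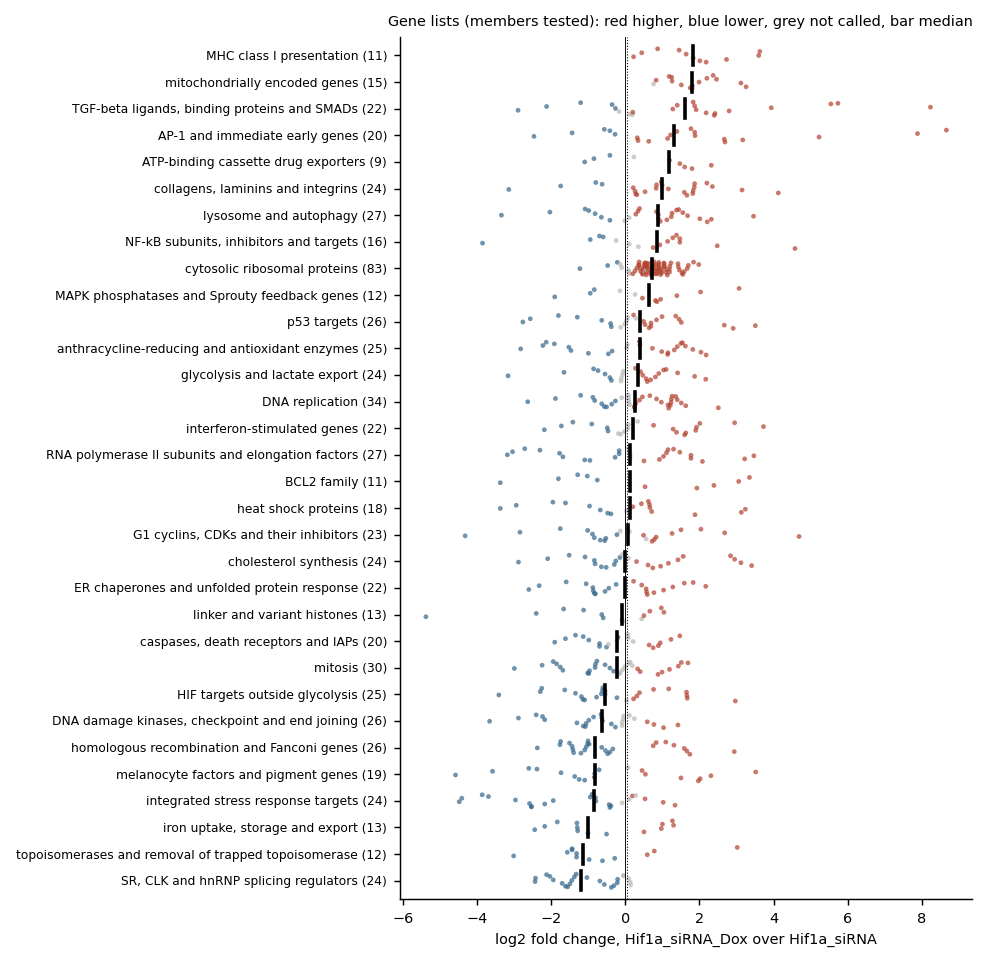
Log2 fold change of every tested member of the 32 gene lists, Hif1a_siRNA_Dox over Hif1a_siRNA, 1 point a gene, red for higher, blue for lower and grey for not called, with a black bar at each list's median and a dotted line at the median of all genes (0.04). Medians run from −1.19 for splicing regulators to 1.83 for MHC class I genes, and most lists hold members on both sides of 0.

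The change went with the genomic span of a gene. Over protein-coding nuclear genes, the median log2 fold change was 0.60 for 1199 genes under 5 kb and 0.47 for 1433 genes of 5 to 10 kb. It was −0.22 for 3181 genes of 20 to 50 kb, −0.43 for 1660 genes of 50 to 100 kb and −0.47 for 504 genes over 200 kb. At least 2-fold higher were 37.7% of the shortest genes and 12.1% of the longest, and at least 2-fold lower 13.2% and 34.7%. The spread of these medians over the 3 Hif1a_siRNA_Dox libraries was 0.01 to 0.12 (SD), less than the gap between short and long genes. The order was not strict, since genes of 100 to 200 kb stood at −0.29. By mean level the medians followed no single direction. They were 0.43 for 92 genes under 1 CPM, 0.35 for 1945 genes of 1 to 10 CPM, −0.10 for 7101 genes of 10 to 100 CPM, −0.03 for 1963 genes of 100 to 1000 CPM and 0.72 for 92 genes over 1000 CPM. Genes are not replicates, span and level are tied to exon number and function, and their separate parts were not tested.

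**Figure D4:**
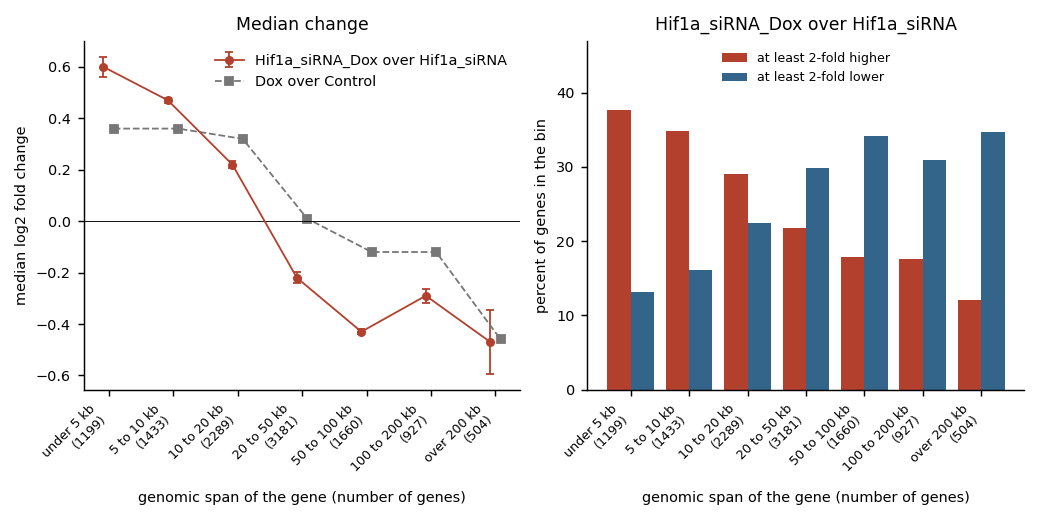
Left, median log2 fold change by genomic span of protein-coding nuclear genes for Hif1a_siRNA_Dox over Hif1a_siRNA (circles, bars the SD over the 3 Hif1a_siRNA_Dox libraries) and for Dox over Control (squares). Right, the percent of genes in each span bin called at least 2-fold higher or lower in Hif1a_siRNA_Dox. The median after the siRNA is 0.60 under 5 kb and −0.47 over 200 kb, and without siRNA 0.36 and −0.46.

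The drug effect after the siRNA was then set against the drug effect without it, in a fit of all 15 libraries and the 12721 genes listed for every group. Dox over Control shares no library with Hif1a_siRNA_Dox over Hif1a_siRNA, and in that fit 83.8% of genes were called without siRNA, 43.9% higher and 39.8% lower. Of 9412 genes called in both, 8572 (91.1%) changed in the same direction and 840 in opposite directions. Of 3213 genes at least 2-fold higher after the siRNA, 2360 were also at least 2-fold higher without it, which is 73.5% of the first list and 69.2% of the second. Of 3171 genes at least 2-fold lower, 2289 were shared, 72.2% of the first list and 73.5% of the second. In all, 70 genes were at least 2-fold higher after the siRNA and 2-fold lower without it, and 10 the reverse.

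Tested directly, the drug effects differed for 58.6% of genes: 3346 were higher after the siRNA than without (26.3%) and 4109 lower (32.3%). With DESeq2 the split was 3789 and 3714, and with RLE factors 3769 and 3683, so the excess of lower effects depends on scaling. Dox and Control cells carry no siRNA, so transfection, loss of Hif1a and the time since transfection cannot be told apart in this difference. A difference of fold changes can come from the levels without the drug as well as from those with it.

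**Figure D5:**
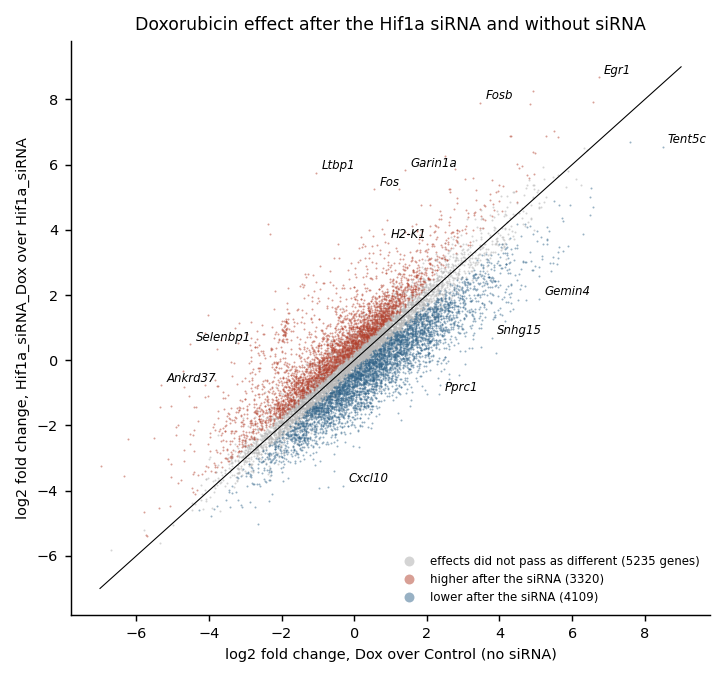
Log2 fold change of doxorubicin after the Hif1a siRNA (vertical) against that without siRNA (horizontal) for the 12664 genes tested in both fits, 1 point a gene, with the line of equal effects. Red and blue genes passed the test of the difference, and Fos, Fosb and H2-K1 lie above the line and Cxcl10, Pprc1 and Gemin4 below it.

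The AP-1 genes gave some of the largest differences. Fos averaged 133 ± 11 CPM in Hif1a_siRNA_Dox and 3.53 ± 0.26 CPM in Hif1a_siRNA (SD, n = 3 each), while it averaged 74.5 ± 8.7 CPM in Dox and 51.1 ± 7.0 CPM in Control. Its effect was 5.24 ± 0.15 after the siRNA and 0.54 ± 0.12 without (difference 4.70 ± 0.19, edgeR adjusted p = 8.1e-15). Among these groups Fos was thus lowest by far in Hif1a_siRNA, and Hif1a_siRNA_Dox and Dox lay above Hif1a_siRNA and Control. NC_siRNA was not part of this comparison. Fosb averaged 177 ± 26 CPM in Hif1a_siRNA_Dox and 0.743 ± 0.353 CPM in Hif1a_siRNA, against 242 ± 43 CPM in Dox and 21.9 ± 1.7 CPM in Control, with an effect of 7.89 after the siRNA and 3.47 without (difference 4.43 ± 0.32). Over the AP-1 list, the effect was higher after the siRNA for 12 of 20 genes and lower for 2. Over all genes it was higher for 26.3% and lower for 32.3%.

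Several of the largest differences were of genes that the drug lowered without siRNA. Ankrd37, a HIF target (difference 4.55), and the selenium-binding genes Selenbp1 (5.01) and Selenbp2 (5.43) fell steeply with the drug in cells without siRNA, by 5.32, 4.51 and 4.03 on the log2 scale. Ankrd37 averaged 6.48 CPM in Hif1a_siRNA_Dox and 6.17 CPM in Dox, against 11.2 CPM in Hif1a_siRNA and 246 CPM in Control. Its levels with the drug were thus close, and it was already low in Hif1a_siRNA. Garin1a, with a difference of similar size (4.42), had instead risen without siRNA (1.41) and had a larger fold change after it (5.83). It averaged 17.5 CPM in Hif1a_siRNA_Dox and 15.4 CPM in Dox, against 0.303 CPM in Hif1a_siRNA and 5.77 CPM in Control. Its levels with the drug were thus close, and those without it lay apart. In Hif1a_siRNA_Dox, Selenbp1 had 46.3, 46.6 and 40.6 CPM, against 30.1, 32.7 and 32.6 CPM in Hif1a_siRNA (0.48 ± 0.09). Selenbp1 averaged 61.0 CPM in Dox and 1393 CPM in Control, so that only Control was high among these groups. NC_siRNA was not part of this comparison. Selenbp1 and Selenbp2 are close copies, and their shares of reads are uncertain. For HIF targets outside glycolysis the effect was higher after the siRNA in 23 of 25 and lower in 1, with list medians of −0.55 after the siRNA and −2.51 without. For glycolysis the counts were 21 and 2 of 24, with medians of 0.34 and −1.92. Whether the counts of these lists come from the levels without the drug was not tested.

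Differences in the opposite direction were led by Cxcl10, whose effect was −3.85 after the siRNA and −0.30 without (difference −3.55 ± 0.18, edgeR adjusted p = 1.1e-13). Cxcl10 averaged 6.68 CPM in Hif1a_siRNA_Dox and 97.4 CPM in Hif1a_siRNA, against 4.36 CPM in Dox and 5.37 CPM in Control. Among these groups Hif1a_siRNA alone stood apart, and NC_siRNA was not part of this comparison. Pprc1, a coactivator of mitochondrial biogenesis, had 30.1, 27.5 and 28.1 CPM in Hif1a_siRNA_Dox, against 56.6, 60.6 and 59.6 CPM in Hif1a_siRNA (−1.05 ± 0.08), while without siRNA it rose by 2.34 (difference −3.38). Eif1a, an initiation factor, also changed sign, at −0.77 after the siRNA and 2.36 without (difference −3.12), as did Pigw, of GPI anchor synthesis (difference −3.25), which shares 116 bases with Myo19. Mean CPM in Hif1a_siRNA_Dox and Dox was 28.58 and 21.64 for Pprc1, 78.04 and 105.5 for Eif1a and 4.11 and 4.13 for Pigw. Mean CPM in Hif1a_siRNA and Control was 58.97 and 4.265 for Pprc1, 132.8 and 20.61 for Eif1a and 6.84 and 0.717 for Pigw. Gemin4, of the complex that builds spliceosomal particles, and the noncoding Snhg15 rose in both settings, by 1.88 and 0.68 after the siRNA and by 5.09 and 3.79 without. Gemin4 averaged 33.73 CPM in Hif1a_siRNA_Dox and 26.59 CPM in Dox, against 9.17 CPM in Hif1a_siRNA and 0.775 CPM in Control. Snhg15 averaged 52.58 CPM and 59.96 CPM with the drug, against 32.8 CPM and 4.33 CPM without it, in the same order of groups. From Pprc1 to Snhg15, levels with the drug lay closer together than those without it, and Control was lowest of these groups.

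Several gene lists differed between the settings as well. Their counts stand beside 26.3% of all genes with a higher effect after the siRNA and 32.3% with a lower one. For DNA replication the drug effect was lower after the siRNA in 28 of 34 genes and higher in 0, with medians of 0.26 after the siRNA and 1.36 without; Fen1 changed by 1.63 and 3.47. With RLE factors 2 replication genes had a higher effect. For homologous recombination and Fanconi genes it was lower in 16 of 26 and higher in 2, with medians of −0.81 and 0.15: Brca2 changed by −1.77 after the siRNA and 0.09 without. For ribosomal protein genes the effect was higher after the siRNA in 62 of 83 and lower in 0. Endoplasmic reticulum chaperones had a lower effect in 15 of 22 and a higher one in 2. Of the p53 targets, 14 of 26 had a lower and 8 a higher effect, and Cdkn1a changed sign, at 0.49 after the siRNA and −1.53 without (difference 2.03, edgeR adjusted p = 1.3e-14). Among topoisomerase genes the effect was higher in 4 and lower in 7 of 12, and lower in 4 with RLE factors. H2-K1 changed by 3.63 after the siRNA and 0.86 without (difference 2.78), and Hspa1b by 3.13 and 0.42 (difference 2.72). Polr2a, by contrast, changed by 3.47 and 3.54, and the difference (−0.06) did not pass.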

How the data were processed

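RNA was extracted with an RNeasy kit and libraries were made with the TruSeq Stranded mRNA kit, per the labels' protocols. Per the submitters' processing notes, reads were handled with Trimmomatic 0.38 and FastQC 0.11.7, with HISAT2 2.1.0 and Bowtie2 2.3.4.1, and with StringTie 2.1.3b on the mm10 build; no role or order is stated for each. Whether the counting used strand is not given in the sources used here. The authors deposited whole-number read counts for each gene, without normalization.

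Counts of Hif1a_siRNA_Dox and Hif1a_siRNA were joined by gene ID. Genes were kept with edgeR's filterByExpr (10 reads, 15 in total), which removed 59, scaled by TMM and tested with the robust quasi-likelihood test of edgeR 4.0.16 in R 4.3.3, and a gene was called at a Benjamini-Hochberg adjusted p under 0.05. The drug effects with and without siRNA were compared by a contrast in 1 fit of all 15 libraries with 10 residual degrees of freedom. The common biological coefficient of variation was 0.0996, which with 23825110 to 28734303 reads a library sets the precision. Both fits were tested on simulated counts with 200 changed genes and the common dispersion. Changes of 1.5-fold were recovered for 71.6% of such genes in the main comparison and 37.3% in the difference, and of 2-fold for 98.5% and 94%. False calls made up 4.3% and 2.5% of calls. Far more genes were called in the data, so the simulation did not test the scaling at that extent of change.

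Named genes were Hif1a and Arnt, the 12 largest called increases and decreases, the 8 largest gains and losses in CPM and the 6 largest differences in each direction, where the higher side averaged 5 CPM or more, with groups that do not overlap and no clone or predicted names for the changes and differences. Examples from the 32 gene lists came from the top 4 of each list ranked by adjusted p, and others were chosen after their values were seen. Many list members overlap a neighbouring gene, and their reads may be split. Some genes that these rules name are not reported here. The members, lists and promoter stretches were chosen with earlier results of these data known. Sequences are RefSeq's for GRCm38.p6. Alternatives were DESeq2 1.42.0, RLE and upper-quartile factors, other filters, a stricter threshold, fits of other library sets, a replicate block and leaving out each replicate.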

Additional observations from a re-analysis of the deposited data

Results flagged for a closer look

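The effect of doxorubicin after the Hif1a siRNA differed from that without siRNA, by edgeR's test of the difference, for 3346 genes with a higher effect and 4109 with a lower one. Differences are log2, the effect in Hif1a_siRNA_Dox over Hif1a_siRNA minus that in Dox over Control. They can come from the levels without the drug as well as from those with it. Among the largest increases, the difference was 1.95 for Egr1, 1.34 for Oplah, 4.43 for Fosb, 3.02 for Hhatl, 1.52 for Dgat2, 2.61 for Mdga1, 1.61 for Epop, 2.56 for Icam5 and 1.23 for Actn3. It was −0.91 for Cyp26b1 and −1.95 for Tent5c, whose fold changes were smaller after the siRNA. With the drug, Cyp26b1 averaged 217 CPM in Hif1a_siRNA_Dox and 130 CPM in Dox, and Tent5c 168 CPM and 154 CPM. Without the drug, Cyp26b1 averaged 2.11 CPM in Hif1a_siRNA and 0.672 CPM in Control, and Tent5c 1.81 CPM and 0.424 CPM. The call for Cyp26b1 was lost without replicate 2 of Control (−0.68, edgeR adjusted p = 0.089). Among the largest decreases, the difference was 0.32 for H1f0, 0.36 for Bhlhe41 and 1.15 for Angptl6, and −2.38 for Fignl1, −0.84 for Mtmr3, −0.33 for Rab38 and −0.68 for Rif1. It was 0.58 for Arnt. The call was lost for H1f0 without replicate 2 of Dox (0.24) and for Bhlhe41 without replicate 2 of Hif1a_siRNA_Dox (0.26). For Rab38 it was lost with DESeq2 (−0.25), with RLE factors (−0.25) and without replicate 3 of Dox (−0.27). For Rif1 it was lost with DESeq2 (−0.60), without replicate 1 of Control (−0.58) and without replicate 3 of Dox (−0.54).

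Among abundant transcripts, the difference was 0.44 for Dct, 0.44 for Eef1a1, 0.88 for Ftl1, 0.29 for Ctsd, 0.70 for Ppia, 1.07 for Hspa8 and −0.28 for Sqstm1. The call for Sqstm1 was lost with DESeq2 (−0.20), RLE factors (−0.20) and upper-quartile factors (−0.25). It was also lost without replicate 3 of Control (−0.25), replicate 2 of Dox (−0.19), replicate 3 of Hif1a_siRNA_Dox (−0.19) or replicate 2 or 3 of Hif1a_siRNA (−0.29 each). The genes named for their difference were Selenbp2 (5.43), Selenbp1 (5.01), Fos (4.70), Ankrd37 (4.55) and Garin1a (4.42) on the higher side. On the lower side they were Cxcl10 (−3.55), Pprc1 (−3.38), Pigw (−3.25), Gemin4 (−3.21), Eif1a (−3.12) and Snhg15 (−3.10).

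Of the 228 genes listed for Hif1a_siRNA_Dox and not for Hif1a_siRNA, which no comparison above uses, 186 had a higher CPM in every Hif1a_siRNA_Dox library than in any Control library, and 0 had fewer. All genes listed for a treated group reach 10 reads in 3 or more of the 6 libraries of that group and Control, so a gene listed for Hif1a_siRNA_Dox alone mostly passed through the drug-treated libraries, and its place above Control was largely fixed by the listing. Hif1a_siRNA_Dox and Control differ in siRNA, transfection and drug, and the parts of these in the levels below cannot be told apart. Of the 228, 28 averaged at least 5 CPM of the library total in Hif1a_siRNA_Dox. Entrep3 averaged 28.3 ± 5.67 CPM in Hif1a_siRNA_Dox and 0.243 ± 0.0988 CPM in Control (SD, n = 3 each). Sfn, which encodes 14-3-3 sigma and is a known target of p53, averaged 25.1 ± 5.57 CPM and 0.127 ± 0.0442 CPM. The metalloprotease gene Adam8 averaged 26.9 ± 1.27 CPM and 0.293 ± 0.0973 CPM, the cytokine gene Ltb 19.7 ± 1.44 CPM and 0.14 ± 0.078 CPM, and the Notch ligand gene Dll4 13.8 ± 1.82 CPM and 0.293 ± 0.181 CPM.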

How the results depend on the processing

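Counts of called genes moved by less than 1.5 times under every alternative run. Leaving out 1 replicate at a time gave 5158 to 5360 genes higher and 5020 to 5399 lower, and 3033 to 3362 and 3945 to 4263 for the difference. Same-numbered libraries did not deviate together (r of −0.047, 0.031 and −0.025), so the numbers do not pair the samples; with the replicate block 5337 genes were higher and 5236 lower, and 3290 and 4083 for the difference. Upper-quartile factors shifted the median of all genes from 0.04 to 0.20, with 5908 genes higher and 4751 lower, 3 splicing regulators higher (0 with TMM), 3 TGF-beta genes lower (5) and no ATP-binding cassette exporter with a lower effect (0, against 1). With them Cd68 (0.03), Mdm2 (0.02) and Plk1 (0.02) turned sign, none of them called with TMM or upper-quartile factors. RLE factors gave a lower effect for 4 topoisomerase genes (7 with TMM), 1 histone gene (3), 0 exporters (1) and 3 lysosome genes (5), and a higher one for 2 replication genes (0). RLE factors also gave medians of 0.45 for genes of 5 to 10 kb, 0.20 for 10 to 20 kb and −0.45 for 50 to 100 kb. Differences that were not called turned sign for Arfgef3 (0.04 with RLE factors and with DESeq2, −0.21 to 0.07 over left-out replicates) and Hspa5 (0.07 with RLE factors and with DESeq2, 0.003 with upper-quartile factors, −0.17 to 0.11 over left-out replicates). Over left-out replicates the difference ran from −0.36 to 0.12 for Fam133b, −0.10 to 0.14 for mt-Co1, −0.01 to 0.14 for Pmel and −0.001 to 0.22 for Actg1. The cause of these shifts was not tested. Depth limits the fold changes of genes nearly silent without the drug, such as Hhatl, which rest on a few reads.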

Other observations

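The change also went with exon number over protein-coding nuclear genes. The median log2 fold change of Hif1a_siRNA_Dox over Hif1a_siRNA was 0.27 for 1757 genes with 2 to 4 exons, 0.05 for 3633 genes with 5 to 9 exons and −0.24 for 228 genes with 40 or more exons. Genes with 1 exon stood at 0.19 (182 genes).

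The 49 genes listed for Hif1a_siRNA and not for Hif1a_siRNA_Dox were few and low. The highest was Wdr5b, which encodes a WD repeat protein, with 68, 73 and 53 reads in the 3 Hif1a_siRNA libraries, an average of 2.33 CPM of the library total.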
